A study of Homo sapiens with 9 samples.

Results

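The genes of the collagen, laminin and integrin chains were followed in cultured breast cancer cells, to see which chains of the matrix and which of its receptors differ between a parental line and 2 metastatic sub-populations. Members were taken by symbol, as genes named COL with a chain number and A with a number, LAMA, LAMB or LAMC with a number, ITGA with a number or letters, and ITGB1 to ITGB8. They were 82 of the 58884 genes of the count table, of which 44 are collagen chains, 12 laminin chains, 18 integrin alpha chains and 8 integrin beta chains.

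Collagens are triple helices of alpha chains, and laminins are cross-shaped trimers of an alpha, a beta and a gamma chain. Collagen IV and laminins form the sheets of the basement membrane, which in the breast separates the epithelium from the stroma, whereas collagens I, III and V form fibrils in the stroma. Integrins are dimers of an alpha and a beta chain at the cell surface, which hold the cell to these ligands and link them to actin or, for the alpha-6 beta-4 dimer, to keratin filaments. The alpha chain largely decides the ligand, so that a receptor can be set beside the matrix chain it binds.

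The Par line was MDA-MB-231, an established human breast cancer line of the triple-negative, claudin-low kind. LM2 is its lung metastatic variant and BrM2 its brain metastatic variant, both of them sub-populations of the same line that were obtained by selection in mice. All 3 lines grew as monolayers in DMEM with 10% FBS and antibiotics, for 3 days before each harvest, so no lung or brain tissue was present in any sample. There were 3 libraries of mRNA per line and 9 in all, which the study's methods describe as biological replicates taken at different passages, and each sub-population is a single selected line. The p-values therefore measure the spread between passages of 3 lines and not between independent selections. Since RNA was taken from whole cultures, fewer cells that express a gene and less RNA per cell cannot be told apart.

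Counts on genes totalled between 14371858 and 24511786 per library, and the members took between 0.621% and 0.807% of them. Levels are given as CPM, counts scaled to a common library size after TMM normalisation, in the order of replicates 1, 2 and 3, and 3 counts, which were taken as the floor, correspond to between 0.115 and 0.221 CPM. VIM, a marker of mesenchymal cells, was at a mean of 725 CPM in Par, 1537 CPM in LM2 and 1502 CPM in BrM2. It is 1 of 7 listed markers of claudin-low or mesenchymal lines, all of which were tested. Of these 7, 1 was higher and 0 lower in LM2 against Par, and 1 higher and 2 lower in BrM2 against Par. In BrM2 against LM2, 0 were higher and 1 lower. The 13 luminal epithelial markers, a list expected to be low, summed to between 1248 and 2380 CPM in Par, 693 and 1803 CPM in LM2 and 838 and 1830 CPM in BrM2, led by KRT8 and KRT18. Of the 9 tested against Par, 1 was higher and 3 lower in LM2, and 1 higher and 1 lower in BrM2. In BrM2 against LM2, 3 of these 9 were higher and 0 lower. Of all genes tested, 8.70%, 13.3% and 8.10% differed in these 3 comparisons at the adjusted p of 0.05 used for calls. ESR1, the oestrogen receptor of luminal cells, was at 0.171 CPM in Par, 0.395 CPM in LM2 and 0.35 CPM in BrM2. The summed level of 9 fibroblast markers lay between 18.1 and 79.5 CPM and that of 10 leukocyte and platelet markers between 2.65 and 15 CPM in all libraries. Replicate 1 of each line stood apart from replicates 2 and 3. Over the 45 members tested, the log2 difference between replicate 1 and the others ran from -1.68 to 0.80, and its Spearman correlation with the GC content of the transcript was 0.80 across these 45 genes, which share the same libraries and are not independent. Libraries with the same replicate number shared these deviations across the lines. Values with the replicate number as a term in the model, called the replicate block, are therefore given where they change a call. Of the 42 calls made with the block alone, 28 were kept when replicate 1 of all lines was also left out. For those that were lost and are named here, the adjusted p without replicate 1 stands beside the value with the block.

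Where the starts of members are known, the sequence before them is shown for those with a shared control region or a large change. COL4A1 and COL4A2 start head to head on chromosome 13, at 110307157 and 110307284 of GRCh38.p14, with 126 bases between them, so that their levels can be read against the same stretch. The other 3 windows hold the 250 bases before the start that RefSeq's promoter set gives for LAMA4 and for COL7A1, which had the largest called rise in LM2 and the largest called fall in BrM2 among members present in the RefSeq promoter table, and of ITGA10, the integrin alpha chain that passed the test. Capitals mark, on either strand, the letters TATAAA of the TATA box, the CCAAT box and the letters GGGCGG of the GC box. Each line is read 5′ to 3′ on the strand of the gene, and the first on the strand of COL4A2.
COL4A1/COL4A2, chr13:110307158-110307283, plus strand: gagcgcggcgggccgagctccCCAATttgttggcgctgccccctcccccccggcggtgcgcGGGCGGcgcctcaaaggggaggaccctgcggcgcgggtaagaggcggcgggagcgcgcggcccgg
LAMA4, chr6:112254568-112254817, minus strand: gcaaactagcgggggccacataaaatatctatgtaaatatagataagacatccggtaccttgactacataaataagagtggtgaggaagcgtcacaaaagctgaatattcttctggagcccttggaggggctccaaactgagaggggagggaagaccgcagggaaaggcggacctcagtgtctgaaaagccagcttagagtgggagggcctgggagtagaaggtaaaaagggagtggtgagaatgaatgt
COL7A1, chr3:48595330-48595579, minus strand: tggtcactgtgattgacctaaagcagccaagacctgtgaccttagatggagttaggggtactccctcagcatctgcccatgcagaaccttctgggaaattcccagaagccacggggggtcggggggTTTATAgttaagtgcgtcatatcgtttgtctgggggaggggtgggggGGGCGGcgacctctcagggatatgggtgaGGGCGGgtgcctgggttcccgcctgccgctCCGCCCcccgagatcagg
ITGA10, chr1:145910051-145910300, minus strand: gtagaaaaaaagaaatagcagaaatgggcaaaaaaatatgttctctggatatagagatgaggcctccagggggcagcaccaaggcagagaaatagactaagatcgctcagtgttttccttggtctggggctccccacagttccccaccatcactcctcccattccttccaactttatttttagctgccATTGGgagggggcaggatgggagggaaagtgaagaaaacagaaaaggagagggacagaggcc

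The stretch between COL4A1 and COL4A2 held 20 CpG dinucleotides, 1 CCAAT box and 1 GC box, and no TATA box. The COL7A1 window held 11 CpG, 1 TATA box and 3 GC boxes, that of ITGA10 held 1 CpG and 1 CCAAT box, and that of LAMA4 held 5 CpG and none of the 3 motifs. The start used for LAMA4, 112254567, lies 418 bases inside the gene record, so its window lies within the gene as recorded, and it also overlapped LAMA4-AS1 in RefSeq. Of 27305 promoters of the same length, 11.1% held a TATA box, 33.0% a CCAAT box and 42.3% a GC box by these letters. Of the 58 members that RefSeq's promoter set held, these shares were 10.3%, 22.4% and 53.4%. A match describes the letters of the window and is neither a bound site nor a cause.

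Of the 82 members, 45 were tested, namely 21 collagen, 10 laminin, 8 integrin alpha and 6 integrin beta chains. The other 37 stayed under the threshold of 47.1 normalised counts in every library, 16 of them at or under 3 counts in all 9 libraries and 2 at 0 in all. Of the tested members, 6 passed the threshold only through 1 or 2 lines, so that they entered the test where they were high, namely COL15A1, COL1A2, COL4A4, COL5A2, LAMA1 and LAMA2. In LM2 against Par, 7 of the 45 members passed the adjusted p of 0.05 in edgeR's quasi-likelihood test, 4 higher and 3 lower, beside 8.70% of all 13038 genes tested (4.17% higher and 4.53% lower). In BrM2 against Par, 12 passed, 5 higher and 7 lower, beside 13.3% of all genes (6.26% and 7.04%). Without BrM2 replicate 3 this count was 7. In BrM2 against LM2, 14 passed, 4 higher and 10 lower, beside 8.10% of all genes (4.10% and 4.0%). With the replicate block, 25, 26 and 24 members passed in these comparisons, beside 34.6% (15.5% higher, 19.1% lower), 42.7% (19.5%, 23.2%) and 37.5% (17.8%, 19.7%) of all genes. The median log2 fold change of the 45 members was 0.12, -0.18 and -0.40, and that of all genes tested 0.01, -0.02 and -0.03.

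The 33 calls without the block fell on 19 genes. All 33 differences had the same direction in each of the 3 replicate numbers, as had 40 of the 42 that passed with the block alone. The calls were made on these same libraries, so the shared direction describes them and is no further support.

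**Figure D1:**
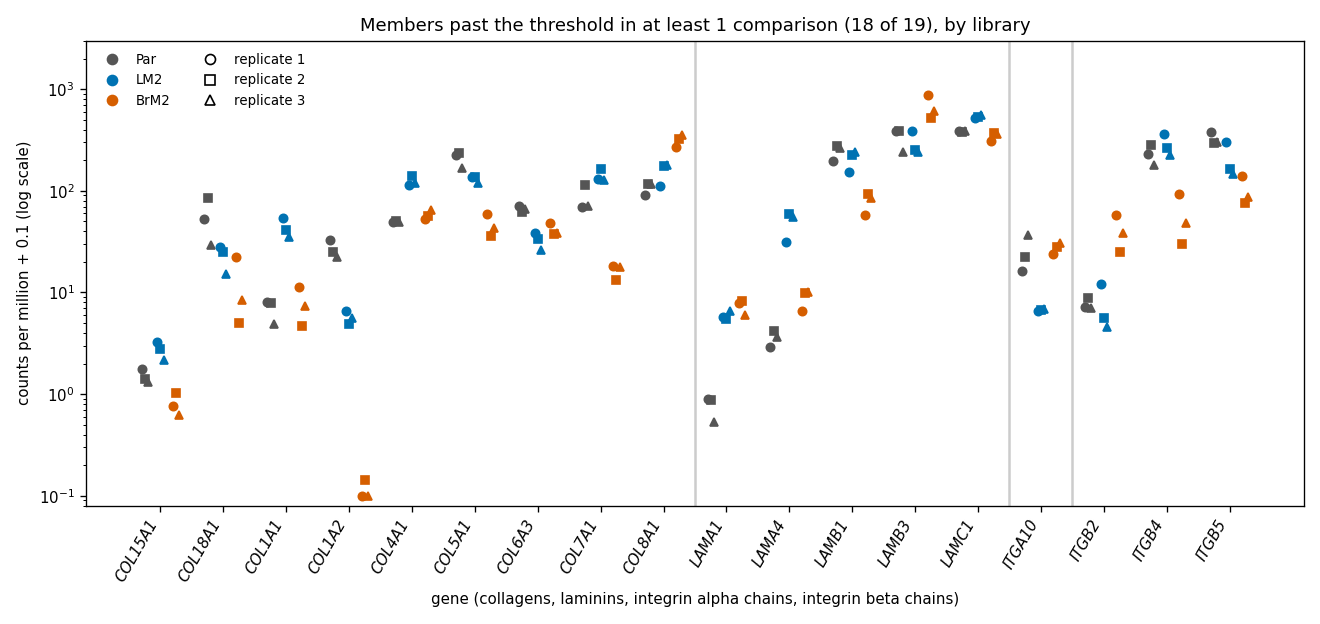
Levels of 18 of the 19 called members in each of the 9 libraries, as CPM plus 0.1 on a log axis, coloured by line and with a symbol for each replicate number. The COL1A2 points of BrM2 lie at the bottom of the plot, and the LAMA1 points of LM2 and BrM2 all lie above those of Par.

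**Figure D2:**
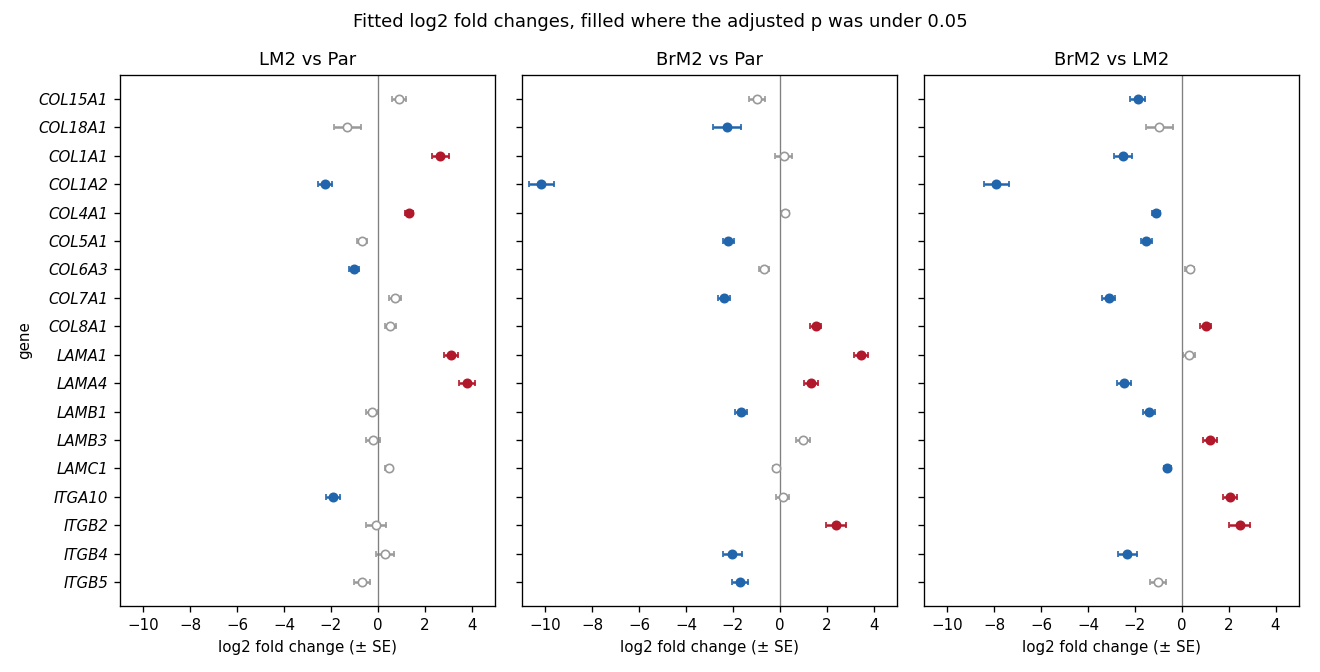
Fitted log2 fold changes with their standard errors for the same 18 genes in the 3 comparisons, filled where the adjusted p was under 0.05. The COL1A2 values of BrM2 are fitted against libraries at the floor, and LAMA4 is higher in both sub-populations than in Par and lower in BrM2 than in LM2.

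The chains of collagen I, the main fibrillar collagen and a ligand of the alpha-1 beta-1, alpha-2 beta-1 and alpha-11 beta-1 integrins, changed in opposite directions in LM2. Differences between lines are given as log2 fold changes, and positions are those of RefSeq in GRCh38.p14, the build of the counted genes. COL1A1 (chr17:50184101-50201631), which gives the alpha-1(I) chain, was at 7.93, 7.74 and 4.83 CPM in Par, 54.4, 41.1 and 35.1 CPM in LM2 and 11.2, 4.55 and 7.29 CPM in BrM2. All LM2 libraries lay above those of Par and BrM2, which overlapped. It rose in LM2 with a log2 fold change of 2.67 ± 0.37 (SE, edgeR adjusted p = 0.0026), and was lower in BrM2 than in LM2, at -2.51 ± 0.37 (SE, edgeR adjusted p = 0.0036). The BrM2 value against Par was 0.16 ± 0.36 (SE, edgeR adjusted p = 0.86).

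COL1A2 (chr7:94394895-94431227), which gives the alpha-2(I) chain, was at 32.8, 25.2 and 22.4 CPM in Par, 6.41, 4.78 and 5.48 CPM in LM2 and 0, 0.0441 and 0 CPM in BrM2. The 3 lines did not overlap, and the BrM2 libraries held 0, 1 and 0 counts against 625, 520 and 571 in Par. It fell in LM2 with a log2 fold change of -2.27 ± 0.30 (SE, edgeR adjusted p = 0.0018). In BrM2 it was at the floor, at least 162-fold lower than in Par and at least 33.5-fold lower than in LM2, taking 3 counts per library as the floor, with edgeR adjusted p of 2.5e-05 and 8.1e-05. The median log2 fold change of genes within 5 Mb of COL1A2 on chromosome 7 was -0.27 in LM2 and -0.59 in BrM2 against Par.

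Per kilobase of transcript, the ratio of COL1A1 to COL1A2 was 0.207, 0.264 and 0.185 in the Par libraries and 7.28, 7.37 and 5.49 in those of LM2. The order of the chains was thus turned round between these lines, with COL1A2 the higher in all Par libraries and COL1A1 the higher in all LM2 libraries. In BrM2, COL1A1 was left at 1.3 ± 0.567 CPM per kilobase (SD, n = 3) beside COL1A2 at its floor. The 9 fibroblast markers summed to between 35.9 and 41.9 CPM in Par, 39.8 and 79.5 CPM in LM2 and 18.1 and 32.1 CPM in BrM2. Of the 3 that were tested, FBLN1 rose in LM2, as given with the basement membrane genes, and PDGFRB fell from a mean of 28.9 CPM in Par to 6.06 CPM in LM2 and 8.06 CPM in BrM2 (edgeR adjusted p = 0.0067 and 0.012), while ACTA2 did not pass without the block. DCN, LUM, FAP and PDGFRA were at a mean of at most 1.59 CPM in any line. The part of these markers in the values of collagen I was not tested. COL3A1, which forms fibrils with collagen I, stayed at or under 12 counts in all libraries and was not tested.

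COL5A1 (chr9:134641803-134844843) codes for a chain of collagen V, which is laid down inside collagen I fibrils. It was at 227, 234 and 166 CPM in Par, 138, 135 and 120.2 CPM in LM2 and 58.4, 35.9 and 43.2 CPM in BrM2, and the 3 lines did not overlap. BrM2 was lower, with a log2 fold change of -2.19 ± 0.24 (SE, edgeR adjusted p = 0.00048) against Par and of -1.52 ± 0.23 (SE, edgeR adjusted p = 0.004) against LM2, and the LM2 value against Par was -0.67 ± 0.23 (SE, edgeR adjusted p = 0.12), which passed with the replicate block (edgeR adjusted p = 0.007). Genes within 5 Mb of it on chromosome 9 had a median of -0.65 in BrM2 against Par, in the same direction, and the part of this in the change of COL5A1 was not tested. Its partner COL5A2 was at 1.21, 1.31 and 1.26 CPM in Par, 1.99, 4.57 and 4.1 CPM in LM2 and 1.18, 2.91 and 2.44 CPM in BrM2. The LM2 libraries lay above those of Par, with 1.5 ± 0.41 (SE, edgeR adjusted p = 0.057), which passed with the block (edgeR adjusted p = 0.0019). Per kilobase, COL5A1 exceeded COL5A2 by 152, 145 and 107 times in Par, 56.1, 23.9 and 23.7 times in LM2 and 40, 9.98 and 14.3 times in BrM2. COL5A3, the remaining chain of collagen V, was not tested.

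Collagen IV, the network of the basement membrane and a ligand of alpha-1 beta-1 and alpha-10 beta-1, was led by COL4A1 and COL4A2. COL4A1 (chr13:110148963-110307157) was at 48.8, 50.7 and 48.9 CPM in Par, 114, 140.4 and 118 CPM in LM2 and 52.7, 55.8 and 63.9 CPM in BrM2. Every LM2 library lay above every other library, and those of BrM2 lay just above those of Par. It rose in LM2 by 1.33 ± 0.17 (SE, edgeR adjusted p = 0.0017) and was lower in BrM2 than in LM2, at -1.11 ± 0.17 (SE, edgeR adjusted p = 0.0042). COL4A2 (chr13:110307284-110513209), on the other side of the stretch printed above, was at 143, 144 and 101 CPM in Par, 250, 207 and 166 CPM in LM2 and 168, 94.2 and 133 CPM in BrM2. The LM2 libraries lay above those of Par, and the fitted difference of 0.68 ± 0.26 (SE, edgeR adjusted p = 0.18) passed with the block (edgeR adjusted p = 0.012, or 0.1 without replicate 1), as did that of BrM2 against LM2, -0.66 ± 0.26 (SE, edgeR adjusted p = 0.2) without it and an edgeR adjusted p of 0.013 with it, or 0.08 without replicate 1. Within the replicate numbers, the log2 ratio of LM2 to Par was 1.22, 1.47 and 1.27 for COL4A1 and 0.81, 0.52 and 0.71 for COL4A2. The ratio of COL4A1 to COL4A2 per kilobase was 0.386 ± 0.0767 in Par, 0.605 ± 0.137 in LM2 and 0.455 ± 0.138 in BrM2 (SD, n = 3), with overlapping libraries. Genes within 5 Mb of the pair had a median log2 fold change of 0.36 in LM2 against Par, and all tested genes of chromosome 13 one of 0.55. These stand beside 1.33 for COL4A1 and 0.68 for COL4A2. In BrM2 against LM2 the median of chromosome 13 was -0.47, beside -1.11 for COL4A1 and -0.66 for COL4A2. The part of the chromosome in the changes of the pair was not tested.

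The other collagen IV chains were low. COL4A5, which pairs with COL4A3 and COL4A4 or with COL4A6, was at 22.3, 26.7 and 28.5 CPM in Par, 13.6, 25.3 and 25.6 CPM in LM2 and 11.1, 17.3 and 18.5 CPM in BrM2 and lower in every BrM2 library than in Par, at -0.73 ± 0.30 (SE, edgeR adjusted p = 0.17), which passed with the block (edgeR adjusted p = 0.0023). With the block it was also lower than in LM2, at -0.45 ± 0.15 (SE, edgeR adjusted p = 0.039). COL4A4 was between 0.998 and 3.03 CPM and passed in no comparison, with or without the block. COL4A3 and COL4A6 were not tested.

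**Figure D3:**
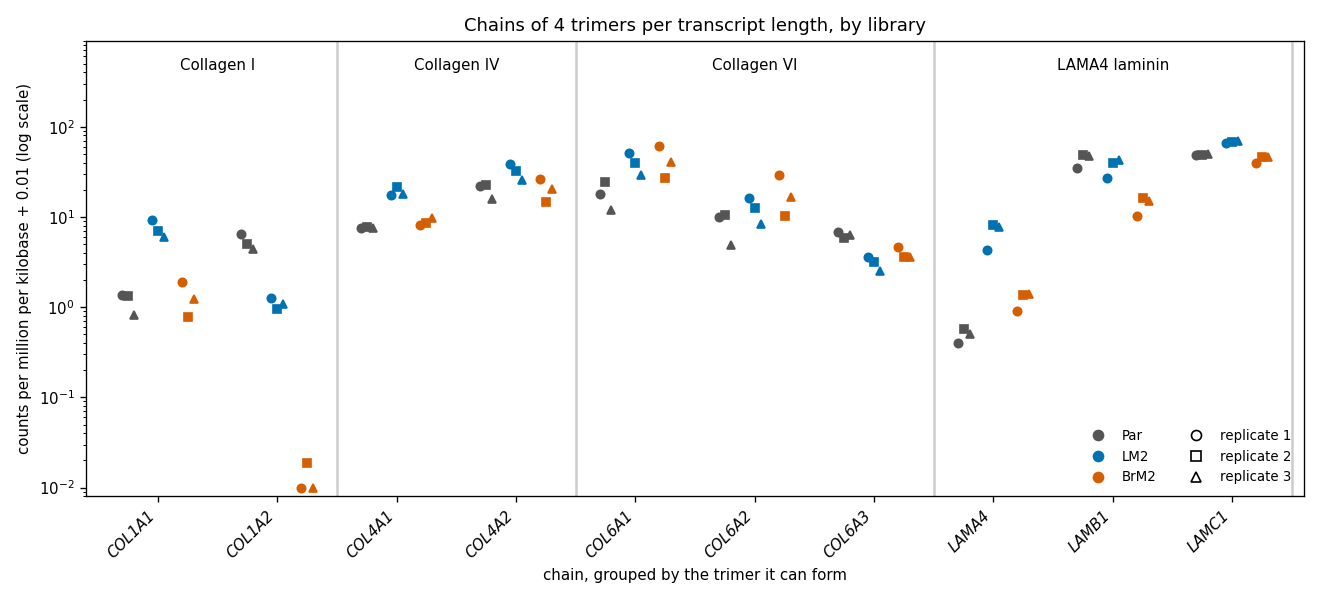
CPM per kilobase of transcript plus 0.01, on a log axis, of the chains of collagens I, IV and VI and of the laminin made of LAMA4, LAMB1 and LAMC1. Within collagen I the order of the chains differs between Par and LM2, and LAMA4 lies below LAMB1 and LAMC1 in all 9 libraries.

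Collagen VI forms beaded microfilaments from COL6A1, COL6A2 and COL6A3. COL6A3 (chr2:237324018-237414164) was at 70.7, 61.6 and 65.7 CPM in Par, 38.2, 33.3 and 26.3 CPM in LM2 and 48.3, 37.3 and 38 CPM in BrM2. Every Par library lay above every library of the sub-populations. It fell in LM2, at -1.02 ± 0.20 (SE, edgeR adjusted p = 0.015), and the BrM2 value of -0.68 ± 0.20 (SE, edgeR adjusted p = 0.061) passed with the block (edgeR adjusted p = 0.0014). The LM2 call was lost without any 1 of Par replicates 1, 2 and 3 and LM2 replicates 2 and 3 (edgeR adjusted p from 0.05 to 0.068).

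COL6A1 lay the other way, at 75.2, 103 and 49.5 CPM in Par, 214, 166 and 122 CPM in LM2 and 257, 114 and 171 CPM in BrM2. Both sub-populations lay above Par in all libraries, with 1.15 ± 0.37 (SE, edgeR adjusted p = 0.1) in LM2 and 1.25 ± 0.37 (SE, edgeR adjusted p = 0.059) in BrM2, and both passed with the block (edgeR adjusted p = 0.0067 and 0.0031, or 0.088 and 0.072 without replicate 1). COL6A2 was at 34.1, 35.8 and 16.6 CPM in Par, 56.3, 42.9 and 28.4 CPM in LM2 and 100.4, 35 and 57.7 CPM in BrM2, and its BrM2 value against Par of 1.16 ± 0.45 (SE, edgeR adjusted p = 0.14) passed with the block (edgeR adjusted p = 0.0076, or 0.12 without replicate 1). The ratio of COL6A1 to COL6A3 per kilobase was 2.67, 4.17 and 1.89 in Par, 14, 12.5 and 11.7 in LM2 and 13.3, 7.65 and 11.3 in BrM2. All ratios of the sub-populations lay above those of Par.

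COL7A1 (chr3:48564073-48595329) forms the anchoring fibrils that tie the basement membrane to the stroma beneath. It was at 69.2, 115 and 71.2 CPM in Par, 130.3, 165 and 129 CPM in LM2 and 17.9, 13.3 and 17.9 CPM in BrM2, and the 3 lines did not overlap. The fall in BrM2 was -2.38 ± 0.26 (SE, edgeR adjusted p = 0.00055) against Par and -3.11 ± 0.27 (SE, edgeR adjusted p = 0.00028) against LM2, and both calls held in every fit that left out 1 library or 1 replicate number. In LM2 it was higher than in Par at 0.73 ± 0.25 (SE, edgeR adjusted p = 0.13), which passed with the block (edgeR adjusted p = 0.012, or 0.087 without replicate 1). COL8A1 (chr3:99638594-99799217), a short-chain collagen of vessel walls and of Descemet's membrane, rose in BrM2. It was at 90.5, 116 and 117 CPM in Par, 111, 175 and 180.2 CPM in LM2 and 270.1, 321 and 349.9 CPM in BrM2, and every BrM2 library lay above every library of the other lines. Its log2 fold change was 1.54 ± 0.23 (SE, edgeR adjusted p = 0.0027) against Par and 1.01 ± 0.23 (SE, edgeR adjusted p = 0.028) against LM2, and the latter was lost without any 1 of Par replicates 2 and 3, LM2 replicates 2 and 3 and BrM2 replicates 2 and 3 (edgeR adjusted p from 0.051 to 0.12). LM2 against Par, 0.53 ± 0.23 (SE, edgeR adjusted p = 0.24), passed with the block (edgeR adjusted p = 0.0066).

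COL15A1 and COL18A1 are collagens of the basement membrane zone, and the end of COL18A1 is released as endostatin. COL15A1 (chr9:98943907-99070787) was low, at 1.68, 1.31 and 1.22 CPM in Par, 3.13, 2.69 and 2.07 CPM in LM2 and 0.664, 0.927 and 0.527 CPM in BrM2, with the LM2 libraries above and the BrM2 libraries below those of Par. BrM2 was lower than LM2, at -1.88 ± 0.32 (SE, edgeR adjusted p = 0.0075), while against Par the values were 0.91 ± 0.30 (SE, edgeR adjusted p = 0.11) in LM2 and -0.97 ± 0.33 (SE, edgeR adjusted p = 0.091) in BrM2, both past the threshold with the block (edgeR adjusted p = 0.016 and 0.023, or 0.071 and 0.12 without replicate 1). It lies on chromosome 9, where genes within 5 Mb had a median of -0.57 in BrM2 against LM2. COL18A1 (chr21:45405165-45513720) was at 53.2, 84.3 and 29.3 CPM in Par, 27.7, 25.2 and 14.9 CPM in LM2 and 22.1, 4.9 and 8.24 CPM in BrM2, with Par above both sub-populations. It fell in BrM2, at -2.25 ± 0.59 (SE, edgeR adjusted p = 0.036). That call was lost without any 1 of Par replicates 1 and 2, LM2 replicate 2 and BrM2 replicates 2 and 3 (edgeR adjusted p from 0.063 to 0.15). Its LM2 value of -1.3 ± 0.57 (SE, edgeR adjusted p = 0.25) passed with the block (edgeR adjusted p = 0.023, or 0.062 without replicate 1). Its exons overlap SLC19A1 on the opposite strand over 1563 bases, and since the strand that was counted is not stated the value of COL18A1 is uncertain to that extent.

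Per kilobase, COL13A1, a transmembrane collagen, had the highest mean level of the collagens, with 73.3 ± 12.7 CPM per kilobase in Par, 103 ± 11.6 in LM2 and 84.5 ± 10.8 in BrM2 (SD, n = 3). It was followed over all libraries by COL8A1 and COL6A1. This order rests on the MANE Select length of 3148 bases, since with the union of exons, 11509 bases, the means over all libraries were 23.8 CPM per kilobase for COL13A1, 25.5 for COL6A1 and 20.4 for COL8A1. COL13A1 was higher in every LM2 library than in Par, at 0.49 ± 0.19 (SE, edgeR adjusted p = 0.18), which passed with the block (edgeR adjusted p = 0.028, or 0.14 without replicate 1). COL9A2, a chain of the cartilage collagen IX, was at 9.4, 11.7 and 7.66 CPM in Par, 7.25, 3.71 and 3.26 CPM in LM2 and 6.05, 2.38 and 2.44 CPM in BrM2. All Par libraries lay above the others, and the values of -1.02 ± 0.44 (SE, edgeR adjusted p = 0.24) in LM2 and -1.42 ± 0.45 (SE, edgeR adjusted p = 0.077) in BrM2 passed with the block (edgeR adjusted p = 0.0084 and 0.0013). COL12A1, a collagen on the surface of fibrils, passed with the block alone, lower at -0.57 ± 0.13 (SE, edgeR adjusted p = 0.0065) in LM2 and -0.61 ± 0.13 (SE, edgeR adjusted p = 0.0033) in BrM2 than in Par. So did COL27A1, a fibrillar collagen of cartilage, higher in LM2 than in Par at 0.82 ± 0.16 (SE, edgeR adjusted p = 0.0032). COL16A1 was lower in BrM2 than in Par with the block, at -0.65 ± 0.24 (SE, edgeR adjusted p = 0.048), a call lost without replicate 1 (edgeR adjusted p = 0.057). COL17A1, the hemidesmosome collagen that joins alpha-6 beta-4, was at a mean of 12.3 ± 2.09 CPM in Par, 12.1 ± 2.58 CPM in LM2 and 11.1 ± 1.11 CPM in BrM2 (SD, n = 3) and passed in no comparison, with or without the block.

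Among the integrins that bind collagen, which share the beta-1 chain, ITGA10 (chr1:145891208-145910050) was the only alpha chain of the 8 tested to pass without the block. It was at 16.3, 22 and 37 CPM in Par, 6.41, 6.65 and 6.78 CPM in LM2 and 23.5, 27.8 and 30.6 CPM in BrM2, with every LM2 library below every other library and Par overlapping BrM2. It fell in LM2, at -1.92 ± 0.30 (SE, edgeR adjusted p = 0.0048) and was higher in BrM2 than in LM2 by 2.05 ± 0.31 (SE, edgeR adjusted p = 0.0037), and both calls held in each of the 9 fits that lacked 1 library. Its ligand chains COL4A1 and COL4A2 had their highest means in LM2, where ITGA10 had its lowest. Of the other receptors for collagen IV, ITGA2 also had its lowest mean in LM2, whereas ITGA1 had its highest there, with the libraries given below. Genes within 5 Mb of ITGA10 on chromosome 1 had a median of 0.43 in BrM2 against LM2, smaller than its own value.

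ITGA2, the alpha-2 chain and a receptor for collagens I and IV, differed between replicate numbers as well as between lines. It was at 125, 227 and 276 CPM in Par, 55.3, 113 and 138 CPM in LM2 and 109.7, 326 and 311 CPM in BrM2, so that replicate 1 was lowest in every line and LM2 overlapped Par. The difference of LM2 from Par was -1.04 ± 0.49 (SE, edgeR adjusted p = 0.28) without the block and -1.07 ± 0.14 (SE, edgeR adjusted p = 0.0002) with it, and the log2 ratios within replicates 1, 2 and 3 were -1.18, -1.0 and -1.0. BrM2 against LM2 gave 1.29 ± 0.49 (SE, edgeR adjusted p = 0.17) without and 1.24 ± 0.14 (SE, edgeR adjusted p = 8.2e-05) with the block. ITGA1, the alpha-1 chain and a receptor for collagen IV, was at 11.9, 29.3 and 44.5 CPM in Par, 16, 47.1 and 52.8 CPM in LM2 and 8.63, 33.4 and 27.6 CPM in BrM2 and passed only with the block in BrM2 against LM2, at -0.75 ± 0.16 (SE, edgeR adjusted p = 0.005), a call lost without replicate 1 (edgeR adjusted p = 0.05). The exons of ITGA1 hold 499 bases of PELO on the same strand, and reads there can be assigned to either gene. ITGA11, the receptor for fibrillar collagens in fibroblasts, held at most 6 counts in any library.

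**Figure D4:**
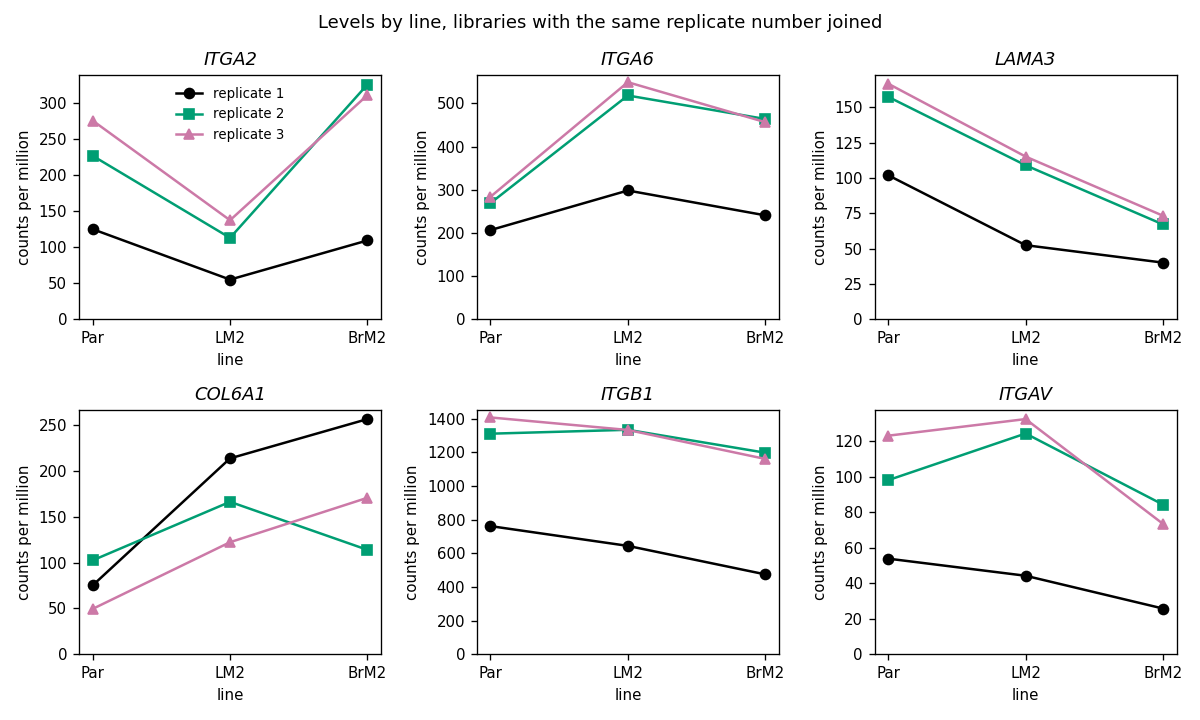
CPM of ITGA2, ITGA6, LAMA3, COL6A1, ITGB1 and ITGAV in Par, LM2 and BrM2, with the libraries of the same replicate number joined. Replicate 1 is lowest in all lines for these genes other than COL6A1, and ITGA2 is lowest in LM2 within each replicate number.

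The laminin alpha chains decide how a laminin binds integrins, and LAMA1 and LAMA4 rose in both sub-populations. LAMA4 (chr6:112107931-112254985), the alpha chain of laminins of vessels, muscle and fat, was at 2.84, 4.07 and 3.54 CPM in Par, 31.3, 58.9 and 55.2 CPM in LM2 and 6.49, 9.85 and 9.97 CPM in BrM2, and the 3 lines did not overlap. It rose by 3.8 ± 0.33 (SE, edgeR adjusted p = 0.00029) in LM2 and by 1.33 ± 0.31 (SE, edgeR adjusted p = 0.021) in BrM2, and BrM2 was lower than LM2, at -2.46 ± 0.31 (SE, edgeR adjusted p = 0.0016). The LM2 call held in every fit that left out 1 library or 1 replicate number, whereas the BrM2 call against Par was lost without any 1 of Par replicates 1, 2 and 3 and BrM2 replicates 2 and 3 (edgeR adjusted p from 0.056 to 0.083). The 8 endothelial markers summed to between 18.1 and 23.7 CPM in Par, 11.5 and 19.3 CPM in LM2 and 15.8 and 21.9 CPM in BrM2. The defining markers CDH5 and VWF were at a mean of at most 0.348 CPM in any line. Of the 4 that were tested, TIE1 alone passed against Par without the block and rose in both sub-populations, from a mean of 0.0161 CPM in Par to 0.615 CPM in LM2 and 3.18 CPM in BrM2 (edgeR adjusted p = 0.0064 and 0.00033). With the block, 1 was higher and 2 lower in LM2, and 2 higher and 2 lower in BrM2, against Par. Of all genes tested, 34.6% and 42.7% passed with the block in these comparisons. The part of the endothelial markers in the change of LAMA4 was not tested. TIE1 entered the test through BrM2 alone, where it was high, and its Par mean lay under the floor.

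LAMA1 (chr18:6941742-7117797), the alpha chain of the laminin of early embryos, was at 0.788, 0.774 and 0.432 CPM in Par, 5.61, 5.43 and 6.44 CPM in LM2 and 7.75, 8.21 and 5.85 CPM in BrM2. Every library of the sub-populations lay above every Par library, while LM2 and BrM2 overlapped. It rose by 3.14 ± 0.30 (SE, edgeR adjusted p = 0.00039) in LM2 and by 3.45 ± 0.30 (SE, edgeR adjusted p = 0.0002) in BrM2, where all fits that left out 1 library or 1 replicate number kept the call, and the sub-populations differed by 0.32 ± 0.26 (SE, edgeR adjusted p = 0.58). Both genes started from low levels. Of the laminin alpha chains summed per kilobase, LAMA4 made up 1.75% ± 0.22 in Par, 24.9% ± 4.21 in LM2 and 7.21% ± 3.28 in BrM2 (SD, n = 3), and LAMA1 0.258% ± 0.114, 2.33% ± 0.432 and 4.39% ± 1.8. The lines did not overlap in either share, and with 3 against 3 the exact permutation test gave p = 0.1 for each pair of lines, the smallest it can give.

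LAMA3 and LAMA5 held most of the alpha chain sum in every library. LAMA3, the alpha chain of the laminin of epithelial hemidesmosomes, was at 102, 157 and 167 CPM in Par, 52.6, 109 and 115 CPM in LM2 and 40.2, 67.2 and 73.4 CPM in BrM2, and every BrM2 library lay below every Par library. BrM2 against Par gave -1.24 ± 0.36 (SE, edgeR adjusted p = 0.055) without the block and -1.25 ± 0.12 (SE, edgeR adjusted p = 1.8e-05) with it, and LM2 against Par -0.62 ± 0.36 (SE, edgeR adjusted p = 0.4) and -0.67 ± 0.12 (SE, edgeR adjusted p = 0.0016). BrM2 also passed against LM2 with the block, at -0.58 ± 0.12 (SE, edgeR adjusted p = 0.0036). LAMA5, the alpha chain of most adult epithelial basement membranes, was at 124, 252 and 108 CPM in Par, 131, 128 and 93.6 CPM in LM2 and 205, 51.1 and 108 CPM in BrM2 and passed in no comparison, with or without the block. It overlaps ADRM1 on the opposite strand over 244 bases. LAMA2, the alpha chain of muscle and nerve laminin, stayed between 1.1 and 2.67 CPM and passed in none either.

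LAMB3 (chr1:209614870-209652425), a beta chain that assembles with LAMA3, lay the other way from it in BrM2. It was at 385, 387 and 238 CPM in Par, 390.4, 249 and 241 CPM in LM2 and 884, 516 and 613 CPM in BrM2, with every BrM2 library above all others. BrM2 was higher than LM2 by 1.19 ± 0.30 (SE, edgeR adjusted p = 0.045). This call was lost without any 1 of Par replicates 1 and 2, LM2 replicates 2 and 3 and BrM2 replicates 1, 2 and 3 (edgeR adjusted p from 0.063 to 0.17). Its value against Par of 0.99 ± 0.30 (SE, edgeR adjusted p = 0.064) passed with the block (edgeR adjusted p = 0.00088).

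LAMB1 and LAMC1 are the beta and gamma chains that laminins of LAMA1, LAMA4 and LAMA5 share. LAMB1 (chr7:107923799-108003161) was at 198, 276 and 264 CPM in Par, 154, 226 and 239 CPM in LM2 and 57.8, 92.4 and 85.4 CPM in BrM2, and every BrM2 library lay below all others. LAMB1 fell in BrM2, at -1.65 ± 0.26 (SE, edgeR adjusted p = 0.0033) against Par and at -1.39 ± 0.26 (SE, edgeR adjusted p = 0.011) against LM2, in each of the 9 fits that lacked 1 library. It shares 300 bases with DLD on the opposite strand, at a mean of 2401 counts for DLD and 3968 for LAMB1, so that LAMB1 is uncertain to that extent. Genes within 5 Mb of LAMB1 on chromosome 7 had a median of -0.34 in BrM2 against Par. LAMC1 (chr1:183023420-183145592) was at 389.6, 381 and 391 CPM in Par, 521, 531 and 556 CPM in LM2 and 311, 369.8 and 364 CPM in BrM2, the tightest replicates of the laminins, with LM2 highest and BrM2 lowest and no overlap. BrM2 was lower than LM2, at -0.62 ± 0.15 (SE, edgeR adjusted p = 0.033). This call was lost without any 1 of Par replicates 1, 2 and 3, LM2 replicates 2 and 3 and BrM2 replicates 1, 2 and 3 (edgeR adjusted p from 0.056 to 0.12). The LM2 value of 0.47 ± 0.15 (SE, edgeR adjusted p = 0.093) against Par passed with the block (edgeR adjusted p = 0.0065). The ratio of LAMB1 to LAMC1 per kilobase was 0.893 ± 0.159 in Par, 0.538 ± 0.108 in LM2 and 0.314 ± 0.047 in BrM2 (SD, n = 3), with each line below the one before it in all libraries. LAMB2, which can take the place of LAMB1, was at 381, 422 and 338 CPM in Par, 365, 275 and 265 CPM in LM2 and 557, 348 and 438 CPM in BrM2. The lines overlapped, though BrM2 lay above LM2 within each replicate number, and its BrM2 value against LM2 of 0.57 ± 0.22 (SE, edgeR adjusted p = 0.18) passed with the block (edgeR adjusted p = 0.013, or 0.052 without replicate 1). Over all libraries LAMB3 had the highest mean level per kilobase of the laminins, followed by LAMB2 and LAMC1.

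The integrins that bind laminin are alpha-3 beta-1, alpha-6 beta-1, alpha-7 beta-1 and alpha-6 beta-4. ITGA3 had the highest level per kilobase of the alpha chains and was at 1832, 1488 and 1201 CPM in Par, 2087, 1091 and 956 CPM in LM2 and 1709.7, 825 and 1105 CPM in BrM2. The lines overlapped, replicate 1 was highest in each of them, and ITGA3 passed in no comparison, with or without the block. Its ligand chains LAMA3 and LAMB3 had the values given above, while ITGA3 itself gave -0.31 ± 0.36 (SE, edgeR adjusted p = 0.69) in BrM2 against Par.

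ITGA6 was at 207, 269 and 284 CPM in Par, 299, 518 and 549 CPM in LM2 and 241, 464 and 457 CPM in BrM2, with every LM2 library above Par. LM2 against Par gave 0.85 ± 0.32 (SE, edgeR adjusted p = 0.16) without the block and 0.80 ± 0.13 (SE, edgeR adjusted p = 0.00081) with it, and BrM2 against Par 0.61 ± 0.32 (SE, edgeR adjusted p = 0.28) and 0.56 ± 0.13 (SE, edgeR adjusted p = 0.0051). The log2 ratios within the replicate numbers were 0.53, 0.94 and 0.95 in LM2 and 0.22, 0.78 and 0.69 in BrM2, all higher than Par. Its values thus lay, with the block, in the direction of LAMA1 and LAMA4, which alpha-6 beta-1 binds. They did not lie in the direction of LAMA3 and LAMA5, which held most of the laminin alpha chain sum. With the block LAMA3 was lower than in Par in both sub-populations, and LAMA5 passed in no comparison.

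ITGB4 (chr17:75721459-75757818), the hemidesmosome chain that pairs with alpha-6 alone, was at 231, 282 and 178 CPM in Par, 358, 265 and 225 CPM in LM2 and 92.1, 29.7 and 47.9 CPM in BrM2. Every BrM2 library lay below all others, and Par overlapped LM2. It fell in BrM2, at -2.03 ± 0.41 (SE, edgeR adjusted p = 0.011) against Par and at -2.32 ± 0.41 (SE, edgeR adjusted p = 0.0088) against LM2. The call against Par was lost without BrM2 replicate 3 (edgeR adjusted p = 0.058) and that against LM2 without the same library (edgeR adjusted p = 0.053). ITGB4 was thus lower in BrM2 while the fitted value of its partner ITGA6 was higher. LM2 against Par gave 0.30 ± 0.39 (SE, edgeR adjusted p = 0.79). Of the chains of its ligand, with the block LAMB3 was higher and LAMA3 lower in BrM2 than in both Par and LM2. Without the block only LAMB3 against LM2 passed, a call lost on leaving out single libraries, as given above. ITGA7, the alpha chain of muscle, held 10, 17 and 18 counts in Par, 13, 8 and 6 in LM2 and 29, 41 and 43 in BrM2 and was not tested. Its BrM2 libraries lay above all others, and 6.12% of its 50-base stretches occur in other genes.

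ITGB1, the shared partner of these alpha chains, had the highest level per kilobase of the beta chains and was at 762, 1311 and 1408 CPM in Par, 644, 1334 and 1333 CPM in LM2 and 475, 1198 and 1161 CPM in BrM2. Replicate 1 was lowest in every line, and the lines overlapped. BrM2 against Par gave -0.30 ± 0.42 (SE, edgeR adjusted p = 0.76) without the block and -0.36 ± 0.12 (SE, edgeR adjusted p = 0.036) with it, which was lost without replicate 1 (edgeR adjusted p = 0.16). In CPM per kilobase it stood at 311 ± 93.3 in Par beside 308 ± 64.6 for ITGA3, 43.6 ± 7.04 for ITGA6 and 26.7 ± 9.8 for ITGA2 (SD, n = 3). With the union of exons as length, the means over all libraries were 73.5 CPM per kilobase for ITGB1 and 139 for ITGA3. Some 3.55% of the 50-base stretches of ITGB1 occur in other genes.

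Of the alpha chains that can pair with beta-1, summed per kilobase, ITGA3 made up 78.3%, 71.7% and 63.9% in the Par libraries, 78.7%, 59.8% and 54.6% in LM2 and 77.9%, 50.1% and 57.8% in BrM2. ITGA6 made up 7.43%, 10.9% and 12.7%, 9.46%, 23.9% and 26.3% and 9.23%, 23.7% and 20.1%. Within each line, replicate 1 held the highest share of ITGA3 and the lowest of ITGA6, and the lines overlapped in both. With the union of exons as length, the mean share of ITGA3 was 62.1% in Par, 54.9% in LM2 and 51.2% in BrM2, and 38.1% in replicate 2 of BrM2. That of ITGA6 was then 15.6%, 28.7% and 24.6%. The share of ITGA10 was 1.18% ± 0.624 in Par, 0.315% ± 0.0746 in LM2 and 1.39% ± 0.317 in BrM2 (SD, n = 3), with LM2 below both other lines in all libraries (exact permutation test, 2-sided p = 0.1, the smallest that 3 against 3 can give).

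**Figure D5:**
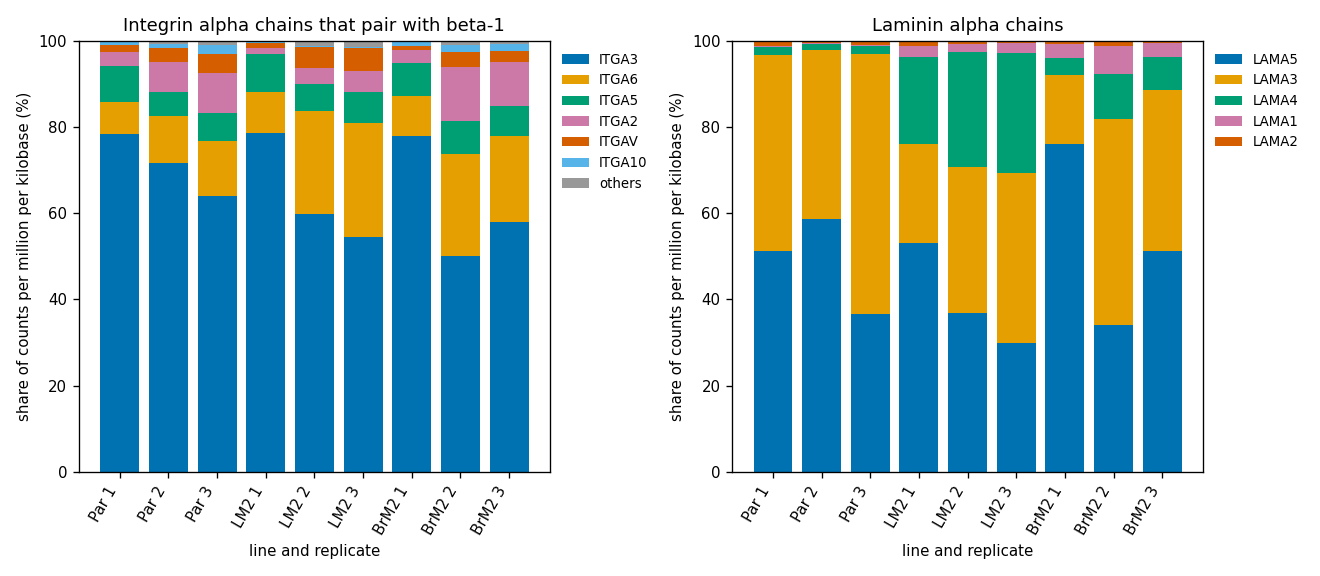
Shares, in percent of the summed CPM per kilobase of each library, of the integrin alpha chains that pair with beta-1 and of the laminin alpha chains. With MANE Select lengths, ITGA3 holds between 50.1% and 78.7% of the alpha chains in every library, and the LAMA4 bars are tallest in LM2.

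The alpha-V and alpha-5 chains bind proteins that carry the RGD sequence. ITGB5 (chr3:124761948-124901418), which with alpha-V forms the vitronectin receptor alpha-V beta-5, was at 379, 293 and 298 CPM in Par, 301, 163 and 146 CPM in LM2 and 139.9, 76.1 and 85.8 CPM in BrM2. Every BrM2 library lay below every library of the other lines, and LM2 overlapped Par through replicate 1. ITGB5 fell in BrM2, at -1.69 ± 0.34 (SE, edgeR adjusted p = 0.011) against Par. That call was lost without any 1 of BrM2 replicates 2 and 3 (edgeR adjusted p from 0.059 to 0.062). The values of -0.67 ± 0.33 (SE, edgeR adjusted p = 0.31) in LM2 against Par and -1.01 ± 0.33 (SE, edgeR adjusted p = 0.11) in BrM2 against LM2 passed with the block (edgeR adjusted p = 0.0024 and 0.00038). Its partner ITGAV was at 53.8, 98.1 and 123 CPM in Par, 44.2, 124 and 132 CPM in LM2 and 25.8, 84.3 and 73.4 CPM in BrM2, with replicate 1 lowest in each line, and gave -0.58 ± 0.54 (SE, edgeR adjusted p = 0.6) in BrM2 against Par without the block and -0.67 ± 0.15 (SE, edgeR adjusted p = 0.005) with it. Against LM2, BrM2 passed with the block too, at -0.72 ± 0.15 (SE, edgeR adjusted p = 0.0043). ITGB8, which with alpha-V binds latent TGF-beta, was at 2.15, 4.26 and 4.4 CPM in Par, 2.14, 7.88 and 9.31 CPM in LM2 and 1.03, 2.25 and 1.92 CPM in BrM2. Its BrM2 libraries lay below LM2 within each replicate number, at -1.87 ± 0.56 (SE, edgeR adjusted p = 0.083) without and -1.82 ± 0.26 (SE, edgeR adjusted p = 0.00036) with the block. Against Par, ITGB8 passed with the block in both directions, higher in LM2 at 0.74 ± 0.23 (SE, edgeR adjusted p = 0.032) and lower in BrM2 at -1.08 ± 0.27 (SE, edgeR adjusted p = 0.0076). ITGB3, the beta chain of the osteopontin and vitronectin receptor, lay between 2.25 and 4.75 CPM and ITGB6 at or under 8 counts. ITGA5, the alpha chain of the fibronectin receptor, was at 171, 100.1 and 108 CPM in Par, 205, 98.4 and 109 CPM in LM2 and 146, 110.4 and 115 CPM in BrM2 and passed in no comparison, with or without the block.

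FN1, fibronectin, the ligand of alpha-5 beta-1 and of alpha-V dimers, was at a mean of 886 CPM in Par, 1131 CPM in LM2 and 290.1 CPM in BrM2. FN1 fell in BrM2, at -1.61 ± 0.17 (SE, edgeR adjusted p = 0.00041) against Par and at -1.96 ± 0.17 (SE, edgeR adjusted p = 0.00027) against LM2, beside the lower ITGB5 and the ITGA5 that did not pass. VTN, vitronectin, the ligand of alpha-V beta-5, was at 1.13 CPM in Par, 0.222 CPM in LM2 and 0.248 CPM in BrM2, and SPP1, osteopontin, at 0.0834 CPM in Par, 0.199 CPM in LM2 and 0.111 CPM in BrM2, both of them named here as ligands of these dimers after their values were seen.

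ITGB2 (chr21:44885953-44928815), the beta chain of the leukocyte integrins, was the integrin with the largest rise. It was at 7.14, 8.76 and 6.99 CPM in Par, 12, 5.47 and 4.52 CPM in LM2 and 58.2, 25.1 and 38.1 CPM in BrM2, and every BrM2 library lay above all others. It rose in BrM2 by 2.41 ± 0.43 (SE, edgeR adjusted p = 0.0067) against Par and by 2.47 ± 0.44 (SE, edgeR adjusted p = 0.0088) against LM2, in each of the 9 fits that lacked 1 library. Its alpha partners ITGAL, ITGAM, ITGAX and ITGAD held at most 7 counts in any library. The summed level of the 10 leukocyte and platelet markers was between 2.65 and 3.76 CPM in BrM2, between 6.36 and 12.1 CPM in LM2 and between 7.74 and 15 CPM in Par. Of these 10, 8 stayed under 1 CPM in all libraries and 2 were tested, so the sum rests on few genes. PTPRC, the general leukocyte marker, was at 0.0891 CPM in Par, 0.0655 CPM in LM2 and 0.136 CPM in BrM2. The exons of ITGB2 overlap ITGB2-AS1 on the opposite strand over 303 bases, at a mean of 116 counts for the antisense gene and 349 for ITGB2, which leaves the level of ITGB2 uncertain. ITGAE, the alpha chain that binds E-cadherin as alpha-E beta-7, was at a mean of 35.2 ± 7.08 CPM in Par, 39.8 ± 4.61 CPM in LM2 and 31.2 ± 4.96 CPM in BrM2 (SD, n = 3) and passed in no comparison, with or without the block. It overlaps HASPIN on the opposite strand, and its partner ITGB7 held at most 2 counts. ITGA4, which binds VCAM1, held at most 3.

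Among members that were not tested, levels are given as counts and without a test. COL8A2, the partner of COL8A1, held 23, 29 and 24 counts in Par, 18, 26 and 20 in LM2 and 6, 3 and 4 in BrM2, with BrM2 below both other lines in CPM too, where COL8A1 was highest. COL4A6 held 33, 34 and 36, 12, 20 and 22 and 26, 35 and 31, with LM2 below both other lines in CPM. ITGA9, the tenascin receptor, held at most 8 counts, and LAMB4 at most 9. COL9A1 and COL9A3, the partners of COL9A2, were not tested either. A count under the threshold does not show that a chain is absent.

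Genes around the matrix and its receptors were counted from 5 lists. The counts stand beside the shares of all tested genes called, 8.70% in LM2 and 13.3% in BrM2 against Par and 8.10% in BrM2 against LM2, or 34.6%, 42.7% and 37.5% with the block, and nothing particular to a list is read from them. Of 32 genes that process collagen, 28 were tested, of which 4 were higher and 2 lower in LM2 against Par, 4 higher and 6 lower in BrM2 against Par, and 1 higher and 2 lower in BrM2 against LM2. With the block these counts were 7 and 11, 8 and 9, and 7 and 8. FKBP10, a chaperone of procollagen, was at a mean of 0.507 CPM in Par, 113 CPM in LM2 and 27.6 CPM in BrM2 and rose by 7.78 ± 0.58 (SE, edgeR adjusted p = 0.00012) in LM2 and 5.75 ± 0.54 (SE, edgeR adjusted p = 0.00025) in BrM2. Its Par libraries stayed under the threshold of the filter, so it entered the test where it was high. ADAMTS14, which trims the amino end of procollagen, was at 5.54 CPM in Par, 1.67 CPM in LM2 and 0.0307 CPM in BrM2 and fell, at -1.73 ± 0.32 (SE, edgeR adjusted p = 0.011) in LM2, while BrM2 was near the floor. The means of ADAMTS14 in LM2 and BrM2 lay under the threshold of the filter, which its mean in Par exceeded. P3H3, a prolyl 3-hydroxylase, was at 0.797 CPM in Par, 4.32 CPM in LM2 and 8.73 CPM in BrM2 and rose by 2.44 ± 0.33 (SE, edgeR adjusted p = 0.0021) in LM2 and 3.45 ± 0.33 (SE, edgeR adjusted p = 0.00029) in BrM2. The mean of P3H3 in Par lay under the threshold of the filter, so P3H3 too entered the test where it was high. LOXL4, a lysyl oxidase that cross-links collagen, was at 70.4 CPM in Par, 17.5 CPM in LM2 and 25.4 CPM in BrM2 and fell, at -2.01 ± 0.34 (SE, edgeR adjusted p = 0.0064) in LM2 and -1.47 ± 0.33 (SE, edgeR adjusted p = 0.019) in BrM2. P3H4, which acts with enzymes that modify collagen lysines, was at 9.93 CPM in Par, 36.1 CPM in LM2 and 16.7 CPM in BrM2 and rose in LM2 by 1.86 ± 0.35 (SE, edgeR adjusted p = 0.012).

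Of 16 other matrix ligands of integrins, 11 were tested, with 3 higher and 1 lower in LM2 against Par, 3 higher and 3 lower in BrM2 against Par, and 2 lower in BrM2 against LM2. With the block these counts were 5 and 3, 3 and 4, and 4 and 4. FBLN5, a ligand in elastic fibres, was at 0.245 CPM in Par, 3.56 CPM in LM2 and 2.83 CPM in BrM2 and rose by 3.88 ± 0.50 (SE, edgeR adjusted p = 0.0017) in LM2 and 3.54 ± 0.50 (SE, edgeR adjusted p = 0.002) in BrM2. Its Par libraries too stayed under the threshold of the filter. THBS1, thrombospondin, was at 1569 CPM in Par, 925 CPM in LM2 and 629 CPM in BrM2 and fell in BrM2, at -1.32 ± 0.23 (SE, edgeR adjusted p = 0.0052). CCN2, a matricellular protein, was at 217 CPM in Par, 355 CPM in LM2 and 513 CPM in BrM2 and rose in BrM2 by 1.24 ± 0.21 (SE, edgeR adjusted p = 0.0049). EDIL3, which binds alpha-V integrins, was at 144 CPM in Par, 64.3 CPM in LM2 and 109.7 CPM in BrM2 and fell in LM2, at -1.16 ± 0.29 (SE, edgeR adjusted p = 0.038). Of 10 other basement membrane genes, 6 were tested, with 1 higher and 1 lower in LM2 against Par, 2 higher in BrM2 against Par, and 2 higher and 1 lower in BrM2 against LM2. With the block, 2 were higher and 3 lower in LM2, 3 higher in BrM2 against Par, and 2 higher and 1 lower in BrM2 against LM2. FBLN1 was at 7.42 CPM in Par, 45.6 CPM in LM2 and 14.9 CPM in BrM2 and rose in LM2 by 2.62 ± 0.36 (SE, edgeR adjusted p = 0.0024), FREM2 rose in BrM2 by 3.33 ± 0.49 (SE, edgeR adjusted p = 0.0022), and HSPG2, perlecan, fell in LM2, at -1.53 ± 0.39 (SE, edgeR adjusted p = 0.045). NTN4, a netrin that binds laminin gamma chains, rose in BrM2 by 1.0 ± 0.25 (SE, edgeR adjusted p = 0.028).

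Of 13 receptors of collagen and laminin that are not integrins, 11 were tested. DDR1, a receptor kinase for collagen, was at 92.4 CPM in Par, 28.7 CPM in LM2 and 33 CPM in BrM2 and was the only one to pass, lower, at -1.69 ± 0.31 (SE, edgeR adjusted p = 0.0099) in LM2 and -1.49 ± 0.31 (SE, edgeR adjusted p = 0.013) in BrM2. With the block, 3 were higher and 4 lower in LM2 and 2 higher and 1 lower in BrM2 against Par, and 3 higher and 1 lower in BrM2 against LM2. Of 30 genes of the adhesion complex inside the cell, 27 were tested, of which 3 passed in LM2 and 2 in BrM2 against Par and 1 was higher in BrM2 than in LM2, all of them tensins, which tie integrin tails to actin. TNS4 was at 55.7 CPM in Par, 7.2 CPM in LM2 and 3.54 CPM in BrM2 and fell, at -2.95 ± 0.38 (SE, edgeR adjusted p = 0.0016) in LM2 and -3.99 ± 0.40 (SE, edgeR adjusted p = 0.00032) in BrM2. TNS1 was at 3.23 CPM in Par, 8.36 CPM in LM2 and 14.9 CPM in BrM2 and rose by 1.37 ± 0.22 (SE, edgeR adjusted p = 0.0055) and 2.2 ± 0.23 (SE, edgeR adjusted p = 0.00038), and TNS3 fell in LM2, at -1.09 ± 0.23 (SE, edgeR adjusted p = 0.02). With the block, 4 of the 27 were higher and 6 lower in LM2 and 3 higher and 6 lower in BrM2 against Par, and 7 higher and 6 lower in BrM2 against LM2.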

How the data were processed

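The deposited values were raw counts of reads per gene, with no normalisation. Per the labels and the study's methods, the authors prepared TruSeq stranded mRNA libraries, sequenced them paired end, processed reads with CASAVA 1.8.2, aligned them to hg38 with STAR 2.7.0 and counted them per gene. The strand that was counted is not given in the sources used here. A further deposited file held the authors' own DESeq2 fold changes and adjusted p-values for LM2 and BrM2 against Par, and was not used.

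The table had 58887 rows, of which 3 repeated an identifier with the same counts and were dropped. Genes were kept where at least 1 library exceeded 47.1 normalised counts, the threshold among 100 between 1 and 200 with the highest mean Jaccard index within lines after a loess fit of span 0.3, in the manner of HTSFilter. This left 13038 genes. The lines were compared with the quasi-likelihood test of edgeR 4.0.16 (limma 3.58.1, R 4.3.3) on TMM library sizes, in 1 model of the 9 libraries with line as the only term. Tests were 2-sided, and p-values were adjusted over all genes tested by Benjamini-Hochberg, with a threshold of 0.05. The procedure was checked on simulated data that had no effect of the replicate number and a lower dispersion than the fit without the block. The check therefore does not cover the spread of these libraries. Levels were CPM on TMM library sizes, which between genes were compared only per kilobase of the MANE Select transcript (GENCODE lengths). Positions and promoters came from RefSeq for GRCh38.p14, and a promoter was found for 58 members. Tables and figures were made with Python 3.11.15, pandas 2.3.3 and matplotlib 3.10.9. The floor of 3 counts per library covers counting error alone.

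Members and gene lists were chosen with earlier results of these data known. Values per library were given for each member past the threshold, for members past it with the block alone at an absolute log2 fold change of at least 1, for the partners of these chains in known dimers or trimers, and for the highest chains per kilobase of each family. In each list of other genes, up to 5 that passed were named, in order of their size of change, and other names given were chosen after their values were seen. The values of 1 called member are not reported here, though counts include it.

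Replicate numbers come from the labels, which do not say what libraries of the same number shared across the lines. The deviations of same-numbered libraries from the means of their lines correlated at between 0.42 and 0.91 over genes in every pair, which was taken as pairing. Adding the number as a block lowered the common dispersion from 0.11 to 0.021. Other alternatives were DESeq2 1.42.0, relative log expression size factors, no filter, the filterByExpr filter of edgeR, fits of only the compared lines, and each library or replicate number left out. The block without replicate 1 and lengths from the union of exons were chosen after seeing the data.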

Additional observations from a re-analysis of the deposited data

Results flagged for a closer look

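For 14 members, the change from Par in BrM2 differed from the change from Par in LM2, with an adjusted p under 0.05 in edgeR's quasi-likelihood test of BrM2 against LM2. That test is the test of this difference, since Par cancels. The log2 fold change against Par in BrM2 minus that in LM2 was negative for 10 chains. These were COL1A2 at -7.90, COL7A1 at -3.11, COL1A1 at -2.51, LAMA4 at -2.46, ITGB4 at -2.32, COL15A1 at -1.88, COL5A1 at -1.52, LAMB1 at -1.39, COL4A1 at -1.11 and LAMC1 at -0.62. The fitted value of COL1A2 rests on BrM2 libraries at the floor, depends on the prior count and is not a bound. For 4 chains the difference was positive, at 2.47 for ITGB2, 2.05 for ITGA10, 1.19 for LAMB3 and 1.01 for COL8A1. Both changes were against the same Par libraries.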

How the results depend on the processing

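Of the 33 calls, 33 were kept by DESeq2, by the filterByExpr filter, with the replicate block and without replicate 1 of all lines, 32 with relative log expression size factors and without a filter, and 29 when only the compared lines were fitted. Without replicate 2 of all lines 6 were kept and without replicate 3 of all lines 8. No called value changed direction in these fits. For LM2 against Par the count of 7 became 12 in DESeq2, and leaving out libraries or replicate numbers gave between 1 and 22. For BrM2 against Par the count of 12 became 20 without a filter, and leaving out gave between 3 and 23. For BrM2 against LM2 the count of 14 became between 2 and 26 on leaving out. In all 3 comparisons the lowest counts came without replicate 2 of all lines, matched by replicate 3 in BrM2 against LM2, and the highest without replicate 1 of all lines. With the replicate block, which rests on the pairing of libraries by number, the counts were 25, 26 and 24. With the block and without replicate 1, an alternative chosen after seeing the data, they were 20 for LM2 and 22 for BrM2 against Par. Lengths from the union of exons moved 33 of the 66 shares of chains by more than the spread between replicates. Counts between 14371858 and 24511786 per library limit what can be said of the 37 members that were not tested.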
